A study of Mus musculus with 12 samples.

Results

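Glucocorticoids are adrenal steroid hormones, corticosterone in the mouse, that enter cells and bind the glucocorticoid receptor encoded by Nr3c1. Before hormone binds, the receptor is held in the cytoplasm by heat shock chaperones and their cochaperones, and the bound receptor moves to the nucleus and acts on genes near its DNA elements. In liver this hormone is known for raising genes of glucose production and amino acid breakdown and for restraining inflammatory signalling. The genes described here are the receptor gene and 9 genes known to respond to it, chosen by symbol: Nr3c1, Fkbp5, Tsc22d3, Sgk1, Cebpd, Dusp1, Zbtb16, Mt1, Mt2 and Klf9. These genes, and the lists set beside them below, were chosen with earlier results of these data known. All 10 symbols were found once each among the 27912 genes of the deposited table, and all 10 had enough reads to be tested.

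Liver RNA of male mice was sequenced. CCR1-KO mice carry a knockout of Ccr1, the gene of a chemokine receptor of macrophages and other leukocytes, and were set against wild-type C57BL/6 mice (WT). The labels describe neither the allele nor the cells that carry it. Mice of both groups were 8 weeks old at the start and ate the CL diet, which is high in fat and cholesterol and contains cholate, for 12 weeks before the liver was taken. The CCR1-KO group had 3 libraries, replicates 65, 66 and 67, and the WT group had 3, replicates 62, 63 and 64, so no chow-fed animal enters any comparison here. Each library is numbered as a mouse of its own in its title, but nothing else in the labels says that the animals were raised apart, and p-values measure the spread between these libraries. Corticosterone was not measured in these data, and the sources used here give neither the hour at which livers were taken nor whether mice had fasted by then.

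The count totals ran from 74699391 to 76785243 reads per CCR1-KO library and from 75301760 to 79154085 per WT library. Levels are given as CPM, read counts scaled to a common library size with TMM factors, or, between genes, as the deposited FPKM, which is also divided by transcript length. Ccr1 reads numbered 11 (replicate 65), 4 (66) and 14 (67) in CCR1-KO livers against 100 (62), 23 (63) and 123 (64) in WT livers, so the groups did not overlap, although its adjusted p was 0.075. Summed hepatocyte markers overlapped, at 70450 to 88327 CPM in CCR1-KO livers and 72152 to 86785 CPM in WT livers, with 2 of 7 higher (Serpina1a and Cps1) and none lower. The summed stellate cell markers ranged from 266 to 322 CPM in CCR1-KO livers and from 458 to 845 CPM in WT livers, with 5 of 8 lower. Summed bile duct markers (42.2 to 49.1 CPM in CCR1-KO, 118 to 190.0 in WT) also stood lower in CCR1-KO. That sum was mostly Spp1, the only 1 of 6 that passed. B cell markers (1.57 to 3.11 in CCR1-KO, 4.13 to 5.79 in WT) stood lower, with none passing. The adipocyte sum (816 to 1746 in CCR1-KO, 1854 to 3488 in WT) stood lower too. It was nearly all Car3, and neither Car3 nor any other marker of that set passed. Exocrine pancreas markers (13.6 to 26.7 in CCR1-KO, 7.73 to 10.01 in WT, nearly all Cela1) stood higher. In whole liver, fewer cells of a type and less RNA per cell cannot be told apart, and the part of these markers in the results below was not tested. Of 13 mitochondrial transcripts, read as a sign of RNA quality, none passed in edgeR or DESeq2 and 0 had an unadjusted p under 0.05. Reads of the major urinary protein (Mup) genes took 3.36% to 15.8% of CCR1-KO libraries and 0.927% to 1.05% of WT libraries. With those genes left out of the scaling, the 4 members that pass in the results below passed again, against 6.35% of all genes, and the members' median log2 fold change was 1.17.

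Of the 10 genes, 4 rose in CCR1-KO livers and none fell at an adjusted p under 0.05 (edgeR quasi-likelihood test, Benjamini-Hochberg adjustment over 17729 genes). Of all genes tested, 6.44% passed that threshold, with 2.83% of all genes higher in CCR1-KO and 3.61% lower. The 4 that rose were Cebpd, Tsc22d3, Fkbp5 and Sgk1. At an unadjusted p under 0.05, which 24.4% of all genes reached, there were 6, with Zbtb16 and Klf9 added, and both of these were called by DESeq2, which called all 6, against 15.1% of the genes it tested. Without scaling factors 2 of the 10 passed, against 6.07% of all genes, and with limma on log2(FPKM + 0.5) without a filter 1 did, against 1.33%. With 1 library left out of the edgeR fit, 5 passed without CCR1-KO replicate 65, against 13.2% of all genes tested in that fit, and 2 without replicate 67, against 2.14%. Cebpd alone passed without CCR1-KO replicate 66 (1.79% of all genes) and without WT replicate 62, 63 or 64 (1.10%, 0.558% and 0.891% of all genes). Calls over all genes thus moved with the same libraries. The median log2 fold change of the 10 was 1.17, against 0.0017 over all genes tested. Fold changes were positive for all 10, as they were for 8890 of the 17729 genes. The CPM of the 3 CCR1-KO libraries lay above that of all 3 WT libraries for 8 of the 10, against 15.2% of all genes. Only Mt1 and Mt2 overlapped between the groups on that scale.

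**Figure D1:**
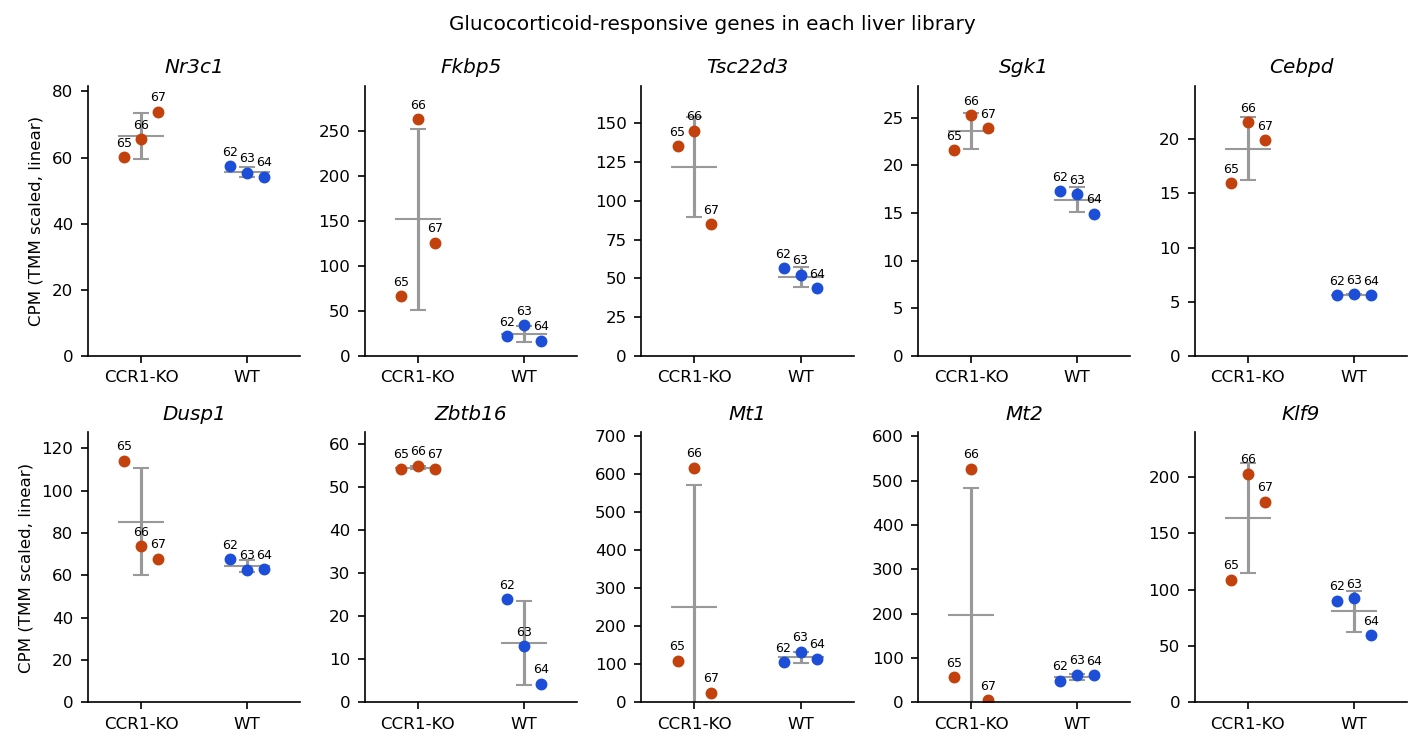
Level of each of the 10 genes in every library, as CPM after TMM scaling, with CCR1-KO libraries left of WT libraries in each panel; points are single libraries, and the bar marks the mean and SD of 3 libraries, cut at 0 where the SD exceeds the mean. Cebpd and Zbtb16 have CCR1-KO points close together (15.9 to 21.5 and 54.3 to 55.0 CPM), while Mt1 and Mt2 span 25.4 to 617 and 5.17 to 528 CPM in CCR1-KO livers.

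Nr3c1 (ENSMUSG00000024431, chromosome 18, 39410545 to 39519421, minus strand, GRCm38) encodes the receptor itself. Its level was 60.1, 65.5 and 73.9 CPM in CCR1-KO replicates 65, 66 and 67, against 57.4, 55.4 and 54.2 CPM in WT replicates 62, 63 and 64. The lowest CCR1-KO library was thus only slightly above the highest WT library. The means were 66.5 ± 6.94 CPM in CCR1-KO and 55.6 ± 1.61 CPM in WT (SD, n = 3 each), and the log2 fold change of 0.26 ± 0.12 (SE) did not pass the test (edgeR adjusted p = 0.22). In deposited FPKM the groups overlapped, with 7.54, 6.80 and 6.87 in CCR1-KO livers and 7.23, 7.33 and 7.50 in WT livers. On that scale the sign turned: limma on log2(FPKM + 0.5) gave a log2 fold change of -0.05. The receptor transcript was therefore not shown to differ in either direction.

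Fkbp5 (ENSMUSG00000024222, chromosome 17, 28399094 to 28517527, minus strand) encodes a cochaperone that binds the receptor complex, lowers its affinity for hormone and is itself raised by the receptor, a feedback loop. It reached 66.3, 262 and 125.4 CPM in CCR1-KO replicates 65, 66 and 67, against 21.9, 34.1 and 16.8 CPM in WT replicates 62, 63 and 64. All CCR1-KO libraries were above all WT libraries, and replicate 66 stood well above the other two. The means of 151 ± 100.6 CPM in CCR1-KO and 24.3 ± 8.90 CPM in WT (SD, n = 3 each) differed 6.23-fold, with a log2 fold change of 2.64 ± 0.50 (SE; edgeR adjusted p = 0.026). This was the highest fold change among the 10 genes. It passed in 10 of 11 fits with another tool, scaling or filter, and over all 17 alternative fits the log2 fold change was at least 1.81. With 1 library left out, the adjusted p was 0.0052 without CCR1-KO replicate 65, and 0.051 and 0.055 without CCR1-KO replicates 66 and 67. It was 0.10, 0.080 and 0.12 without WT replicates 62, 63 and 64, so 5 of these 6 smaller fits lost the call.

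Fkbp4 encodes the related cochaperone that favours hormone binding and transport of the receptor, so the balance of the pair was read within each library, where scaling has no effect. Reads of Fkbp5 per read of Fkbp4 were 0.329, 1.44 and 0.581 in CCR1-KO replicates 65, 66 and 67, against 0.185, 0.293 and 0.122 in WT replicates 62, 63 and 64. The ratio was above the WT libraries in all 3 CCR1-KO libraries, narrowly in replicate 65. It was above 1 only in replicate 66, the single library where Fkbp5 had more reads than Fkbp4. Fkbp4 itself rose by CPM, with 200.1 ± 16.8 CPM in CCR1-KO and 124 ± 11.7 CPM in WT (log2 fold change 0.69 ± 0.13, edgeR adjusted p = 0.025). Its FPKM overlapped between the groups, with 69.6, 52.1 and 55.3 in CCR1-KO livers and 40.95, 42.5 and 52.4 in WT livers. Fkbp4 passed in 1 of 6 fits that leave out 1 library and in 6 of 11 other fits.

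Tsc22d3 (ENSMUSG00000031431, chromosome X, 140539528 to 140600659, minus strand) encodes GILZ, a leucine zipper protein through which glucocorticoids restrain inflammatory signalling. Its level was 135, 145 and 84.9 CPM in CCR1-KO replicates 65, 66 and 67, against 56.7, 52.4 and 43.7 CPM in WT replicates 62, 63 and 64. The groups were apart, and replicate 67 lay nearest to WT. Tsc22d3 rose 2.39-fold, to 122 ± 32.3 CPM in CCR1-KO against 50.9 ± 6.63 CPM in WT, with a log2 fold change of 1.26 ± 0.21 (SE, n = 3 each; edgeR adjusted p = 0.0195). Its adjusted p was 0.065 when library totals were used without scaling factors and 0.075 with limma on log2(FPKM + 0.5). Per read of Nr3c1, there were 2.25, 2.22 and 1.15 reads of Tsc22d3 in CCR1-KO livers and 0.988, 0.947 and 0.807 in WT livers, again without overlap.

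Sgk1 (ENSMUSG00000019970, chromosome 10, 21882184 to 21999893, plus strand) encodes a serine/threonine kinase of the insulin and mTORC2 pathway whose transcript is raised by glucocorticoids and mineralocorticoids. Its level was 21.6, 25.3 and 23.9 CPM in CCR1-KO replicates 65, 66 and 67, against 17.3, 16.95 and 14.9 CPM in WT replicates 62, 63 and 64. Both groups were tight and did not overlap. The means were 23.6 ± 1.87 CPM in CCR1-KO and 16.4 ± 1.30 CPM in WT, a 1.44-fold rise with a log2 fold change of 0.52 ± 0.12 (SE, n = 3 each; edgeR adjusted p = 0.047). Its call depended on the scaling: the log2 fold change was 0.22 (adjusted p = 0.43) without scaling factors and 0.19 (adjusted p = 0.39) with limma on log2(FPKM + 0.5). In FPKM the groups overlapped, with 4.23, 4.10 and 3.48 in CCR1-KO livers and 3.41, 3.51 and 3.22 in WT livers. Within libraries, reads of Sgk1 per read of Nr3c1 were 0.359, 0.386 and 0.324 in CCR1-KO livers and 0.302, 0.306 and 0.275 in WT livers, and these did not overlap.

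A full glucocorticoid response element was found in a promoter window of Sgk1. RefSeq windows on GRCm38.p6, each running from 250 bases before to 50 bases after a start, were available for 7 of the 10 genes (14 windows). They were searched on both strands for the palindrome that a receptor pair contacts, AGAACA and TGTTCT with any 3 bases between them, and for either arm of it alone. The exact palindrome was found in 3 of 32851 mouse windows of that table (0.00913%), and of the members' windows only this one of Sgk1 holds it. This window is shown because it carries that match, chr10:21993640-21993939 on the plus strand, with the palindrome and a further single arm in capitals.

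Sgk1: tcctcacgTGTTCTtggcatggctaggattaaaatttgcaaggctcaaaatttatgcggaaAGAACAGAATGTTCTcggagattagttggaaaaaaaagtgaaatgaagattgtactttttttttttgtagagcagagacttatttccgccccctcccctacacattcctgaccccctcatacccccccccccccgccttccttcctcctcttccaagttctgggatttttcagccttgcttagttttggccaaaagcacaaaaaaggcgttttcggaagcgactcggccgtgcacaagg

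The palindrome occupies 21993701 to 21993715, which is 189 bases before the start that the window belongs to and 965 bases before the most downstream Sgk1 start. A single arm, AGAACA on either strand, is present in 19% of all windows. Another Sgk1 window holds the palindrome with 2 mismatches, which 1.84% of windows do. A single arm without the palindrome was also present in 2 further Sgk1 windows and in 1 Tsc22d3 window. These matches describe letters in short windows, and most known receptor sites lie farther away than such windows reach.

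Dusp1 (ENSMUSG00000024190, chromosome 17, 26505590 to 26562128, minus strand) encodes MKP-1, the phosphatase that switches off p38 and JNK and that glucocorticoids raise in many cell types. Its level was 114, 73.8 and 67.9 CPM in CCR1-KO replicates 65, 66 and 67, against 67.7, 62.6 and 62.98 CPM in WT replicates 62, 63 and 64. Replicate 65 stood apart from the rest, and the CPM of replicate 67 was barely above the highest WT library. The means of 85.3 ± 25.2 CPM in CCR1-KO and 64.4 ± 2.84 CPM in WT gave a log2 fold change of 0.41 ± 0.20 (SE, n = 3 each), which did not pass the test (edgeR adjusted p = 0.25). In FPKM the groups overlapped, with 33.3, 17.8 and 14.7 in CCR1-KO livers and 19.8, 19.2 and 20.2 in WT livers. The Dusp1 model of the table overlaps Ergic1 on the opposite strand, and the sources used here do not say whether reads were counted by strand.

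Cebpd, Zbtb16 and Klf9 encode transcription factors that act downstream of the receptor. Cebpd (ENSMUSG00000071637, chromosome 16, 15887286 to 15891031, plus strand) encodes C/EBP delta, a factor that glucocorticoids and interleukin-6 raise in liver. It reached 15.9, 21.5 and 19.9 CPM in CCR1-KO replicates 65, 66 and 67, against 5.59, 5.68 and 5.62 CPM in WT replicates 62, 63 and 64. The WT libraries were almost equal and every CCR1-KO library was well above them. Cebpd rose 3.40-fold, to 19.1 ± 2.89 CPM in CCR1-KO against 5.63 ± 0.0480 CPM in WT, with a log2 fold change of 1.76 ± 0.15 (SE, n = 3 each; edgeR adjusted p = 0.0033). Its p ranked 16 among all genes tested. It passed in each of the 6 fits that leave out 1 library and in each of 11 other fits, with log2 fold changes from 1.03 to 1.88 and a highest adjusted p of 0.030. No other member passed in all of these fits. Per read of Nr3c1, Cebpd had 0.265, 0.329 and 0.270 reads in CCR1-KO livers and 0.0974, 0.103 and 0.104 in WT livers.

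Interleukin-6 is another known inducer of Cebpd, and its programme was described by 22 acute phase and STAT3 genes. Of these, 2 rose and none fell (9.09%, against 6.44% of all genes), with a median log2 fold change of 0.15. There were 5 of the 22 at an unadjusted p under 0.05, against 24.4% of all genes. Il6ra, the interleukin-6 receptor, reached 95.8 ± 19.2 CPM in CCR1-KO against 46.2 ± 9.92 CPM in WT (log2 fold change 1.05 ± 0.20, edgeR adjusted p = 0.028). Itih3, a plasma protein that binds hyaluronan, reached 1162 ± 178 CPM in CCR1-KO against 719.7 ± 50.2 CPM in WT (0.69 ± 0.16, adjusted p = 0.044). Of 6 fits that leave out 1 library, Il6ra passed in 1 and Itih3 in 2. Of 11 other fits, Il6ra passed in 7 and Itih3 in 5. Saa1, a serum amyloid of the acute phase chosen here after its values were seen, had 177, 178 and 24.6 CPM in CCR1-KO livers and 73.7, 146 and 251 CPM in WT livers, and the groups overlapped. Cebpb, the related factor of the acute phase, averaged 16.6 ± 5.26 CPM in CCR1-KO and 35.0 ± 18.2 CPM in WT (log2 fold change -1.07 ± 0.42, edgeR adjusted p = 0.17), the opposite sign to Cebpd without passing the test.

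Zbtb16 (ENSMUSG00000066687, chromosome 9, 48654297 to 48836222, minus strand) encodes PLZF, a zinc finger repressor whose transcript glucocorticoids strongly raise in human cells. Its level was 54.3, 55.0 and 54.3 CPM in CCR1-KO replicates 65, 66 and 67, against 24.1, 13.1 and 4.39 CPM in WT replicates 62, 63 and 64. In CPM the CCR1-KO libraries were nearly equal, the highest 1.01 times the lowest, whereas the WT libraries spanned 5.48-fold. Every CCR1-KO library was more than any WT library. In FPKM the level was 9.91, 8.30 and 7.35 in CCR1-KO livers and 4.41, 2.52 and 0.88 in WT livers. The near equality of the CCR1-KO libraries thus depended on the scaling, while the groups stayed apart. The means of 54.5 ± 0.403 CPM in CCR1-KO and 13.8 ± 9.86 CPM in WT differed 3.94-fold. With a log2 fold change of 1.98 ± 0.50 (SE, n = 3 each), the gene missed the threshold (edgeR adjusted p = 0.060). DESeq2 gave an adjusted p of 0.018 and limma-voom 0.030. Ccr1 lies on the same chromosome as Zbtb16, at 123962124 to 123968692 on the minus strand, far from it.

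Klf9 (ENSMUSG00000033863, chromosome 19, 23141226 to 23168134, plus strand) encodes a Krüppel-like repressor that the receptor raises directly, and thyroid hormone and the circadian clock act on it as well. Its level was 109, 203 and 178 CPM in CCR1-KO replicates 65, 66 and 67, against 90.3, 92.3 and 59.8 CPM in WT replicates 62, 63 and 64. The groups did not overlap, and replicate 65 was much nearer to WT than the other CCR1-KO libraries. The means were 163 ± 48.8 CPM in CCR1-KO and 80.8 ± 18.2 CPM in WT, a ratio of 2.02 with a log2 fold change of 1.02 ± 0.26 (SE, n = 3 each). Klf9 missed the threshold (edgeR adjusted p = 0.061), passed it without CCR1-KO replicate 65 (0.012) and passed it in DESeq2 (0.0019).

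**Figure D2:**
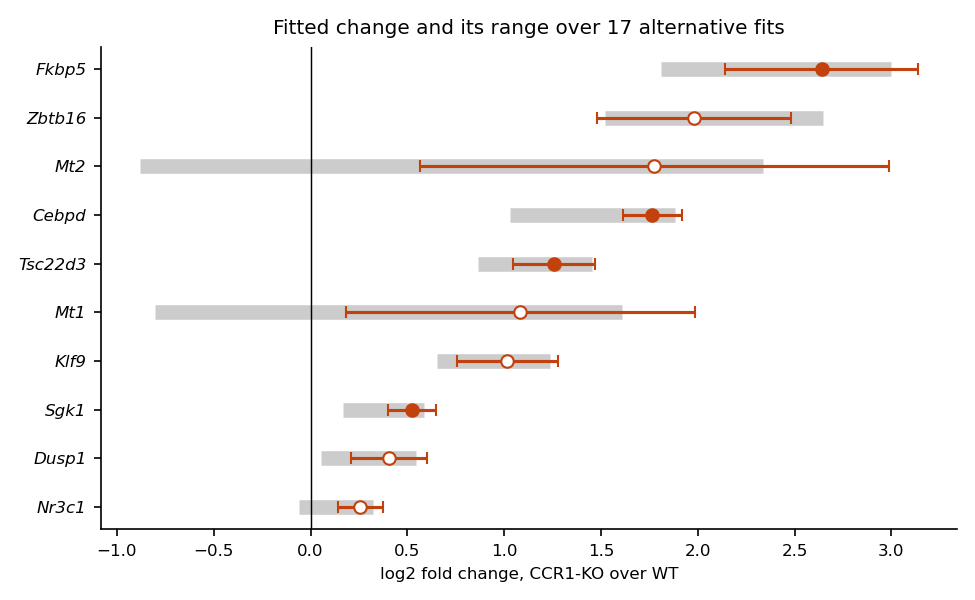
Log2 fold change, CCR1-KO over WT, of each of the 10 genes, with the edgeR value and its SE drawn against the values from 17 alternative fits (other tools, scalings, filters and left-out libraries). Cebpd stays between 1.03 and 1.88, while Nr3c1, Mt1 and Mt2 have fits on both sides of 0.

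Mt1 and Mt2 encode metallothioneins, small cysteine-rich proteins that bind zinc and copper and are raised in liver by metals, glucocorticoids and interleukin-6. Both lie side by side on chromosome 8 on the plus strand, Mt2 (ENSMUSG00000031762) at 94172664 to 94173568 and Mt1 (ENSMUSG00000031765) at 94179082 to 94180327. Mt1 had 110.1, 617 and 25.4 CPM in CCR1-KO replicates 65, 66 and 67, against 106.0, 134 and 115 CPM in WT replicates 62, 63 and 64. Mt2 had 57.0, 528 and 5.17 CPM in the same CCR1-KO libraries, against 49.1, 62.1 and 61.0 CPM in the WT libraries. In both genes replicate 66 was far above WT, replicate 67 far below and replicate 65 near WT, so the groups overlapped.

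The CCR1-KO libraries spanned 24.3-fold for Mt1 and 102-fold for Mt2, against 1.26-fold for their sum over the WT libraries. Means were 250.7 ± 319.8 CPM in CCR1-KO and 118 ± 14.2 CPM in WT for Mt1, with a log2 fold change of 1.08 ± 0.90 (SE, n = 3 each; edgeR adjusted p = 0.50). For Mt2 they were 197 ± 288 CPM in CCR1-KO and 57.4 ± 7.21 CPM in WT, with a log2 fold change of 1.78 ± 1.21 (adjusted p = 0.41). The sign of both rests on a single library: without CCR1-KO replicate 66 the log2 fold changes were -0.80 for Mt1 and -0.88 for Mt2. Because the genes are close paralogs among which reads could be split, and Mt2 overlaps an antisense model, their CPM were also summed. The sum was 167, 1144 and 30.6 CPM in CCR1-KO livers and 155, 196 and 176 CPM in WT livers. An exact two-sided permutation test of the difference in means gave p = 0.90, where 0.10 is the smallest that 3 against 3 libraries allow.

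Within CCR1-KO livers the balance of the pair ran in the order of their level. Mt2 reads per Mt1 read were 0.518, 0.856 and 0.203 in CCR1-KO replicates 65, 66 and 67, against 0.463, 0.464 and 0.531 in WT replicates 62, 63 and 64. Replicate 66, the highest library, had the highest ratio and replicate 67, the lowest, had the lowest. Both promoters are shown because they carry repeats of the metal response core TGCNCNC, the element of the zinc-sensing factor MTF-1, whose copies stand in capitals: Mt2 at chr8:94172368-94172667 and Mt1 at chr8:94178839-94179138, both on the plus strand, from RefSeq on GRCm38.p6.

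Mt2: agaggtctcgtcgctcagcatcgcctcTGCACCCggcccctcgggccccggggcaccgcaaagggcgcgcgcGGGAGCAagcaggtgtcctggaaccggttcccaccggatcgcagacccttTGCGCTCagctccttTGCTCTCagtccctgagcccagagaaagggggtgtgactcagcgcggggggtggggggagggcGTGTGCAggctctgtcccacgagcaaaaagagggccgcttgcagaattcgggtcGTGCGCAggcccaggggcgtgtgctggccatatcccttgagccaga

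Mt1: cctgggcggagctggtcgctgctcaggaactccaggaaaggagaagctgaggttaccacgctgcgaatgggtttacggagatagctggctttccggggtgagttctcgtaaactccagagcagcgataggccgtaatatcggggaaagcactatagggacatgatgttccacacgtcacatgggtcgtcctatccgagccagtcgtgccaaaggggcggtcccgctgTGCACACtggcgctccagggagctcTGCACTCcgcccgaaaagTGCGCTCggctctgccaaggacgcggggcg

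On both strands together Mt2 has 6 matches, a number that 0.225% of the 32851 windows reach, and Mt1 has 3, which 7.1% reach. At least 1 match is present in 51% of windows, among them those of Fkbp5 and Dusp1. A window of Sgk1 holds 3 matches, as many as Mt1, and a further Sgk1 window and a Tsc22d3 window hold 1 each. The glucocorticoid palindrome, with up to 2 mismatches, and its single arm were not among the letters of either metallothionein window.

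Of 17 tested genes of the metal response and zinc transport, none rose and 1 fell in edgeR, with a median log2 fold change of 0.02. There were 5 at an unadjusted p under 0.05, against 24.4% of all genes, and 4 passing in DESeq2, against 15.1%. Slc39a4, the zinc importer ZIP4, was the one that fell, to 13.9 ± 4.58 CPM in CCR1-KO against 36.2 ± 7.42 CPM in WT (log2 fold change -1.39 ± 0.25, edgeR adjusted p = 0.024). A further 2 genes were chosen after their values were seen. Slc39a14, the importer ZIP14 that inflammation raises in liver, had 239, 523 and 339 CPM in CCR1-KO replicates 65, 66 and 67, against 148, 160 and 218 CPM in WT livers (adjusted p = 0.069). It was above WT in all 3 CCR1-KO libraries, and highest in replicate 66. Slc30a1, a zinc exporter that MTF-1 raises, had 31.7, 38.4 and 28.9 CPM in CCR1-KO livers and 24.2, 27.8 and 34.0 CPM in WT livers, a narrow span beside that of the metallothioneins.

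Compared by length-corrected level (FPKM), the order of the 10 genes in CCR1-KO livers was Mt2 (272 ± 387), Mt1 (165 ± 202), Klf9 (27.3 ± 5.96), Tsc22d3 (23.6 ± 8.47), Dusp1 (21.9 ± 9.96), Fkbp5 (12.8 ± 8.20), Zbtb16 (8.52 ± 1.29), Nr3c1 (7.07 ± 0.409), Cebpd (4.16 ± 0.399) and Sgk1 (3.94 ± 0.401; SD, n = 3). Of neighbours in this order, only Nr3c1 and Cebpd differed by more than the sum of their SDs. In WT livers the order was Mt2 (99.6 ± 16.3), Mt1 (96.6 ± 13.5), Dusp1 (19.8 ± 0.506), Klf9 (16.96 ± 3.32), Tsc22d3 (11.9 ± 1.03), Nr3c1 (7.35 ± 0.137), Sgk1 (3.38 ± 0.147), Fkbp5 (2.60 ± 0.943), Zbtb16 (2.60 ± 1.77) and Cebpd (1.52 ± 0.0764). By the same measure, neighbours were not separated for Mt2 and Mt1, for Dusp1 and Klf9, and from Sgk1 through Fkbp5 and Zbtb16 to Cebpd. Fkbp5 and Zbtb16 were below the receptor transcript in WT livers and above it by mean in CCR1-KO livers.

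The 3 CCR1-KO livers differed among themselves. By CPM, replicate 66 was the highest CCR1-KO library for 8 of the 10 genes, whereas it was the highest for 33.6% of all genes tested. Replicate 65 was the lowest CCR1-KO library by CPM for 6 of the 10 and replicate 67 for the remaining 4. Over all genes tested, replicates 65 and 67 were lowest by CPM for 5959 and 6056 of 17729. These ranks depended on the scaling. By deposited FPKM, Nr3c1, Tsc22d3, Sgk1, Dusp1 and Zbtb16 were highest in replicate 65 and the other members in replicate 66. Only Fkbp5 and Klf9 were lowest in replicate 65 by FPKM, whereas Nr3c1 was lowest in replicate 66 and the rest in replicate 67. Relative to the WT mean, Fkbp5 stood at log2 1.45, 3.43 and 2.37 in replicates 65, 66 and 67, Klf9 at 0.43, 1.33 and 1.14, and Dusp1 at 0.83, 0.20 and 0.08. Zbtb16 stood at 1.97, 1.99 and 1.97. Dusp1 was therefore highest in the library where Fkbp5 and Klf9 were lowest, and Zbtb16 was level across all 3 in CPM, though not in FPKM.

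**Figure D3:**
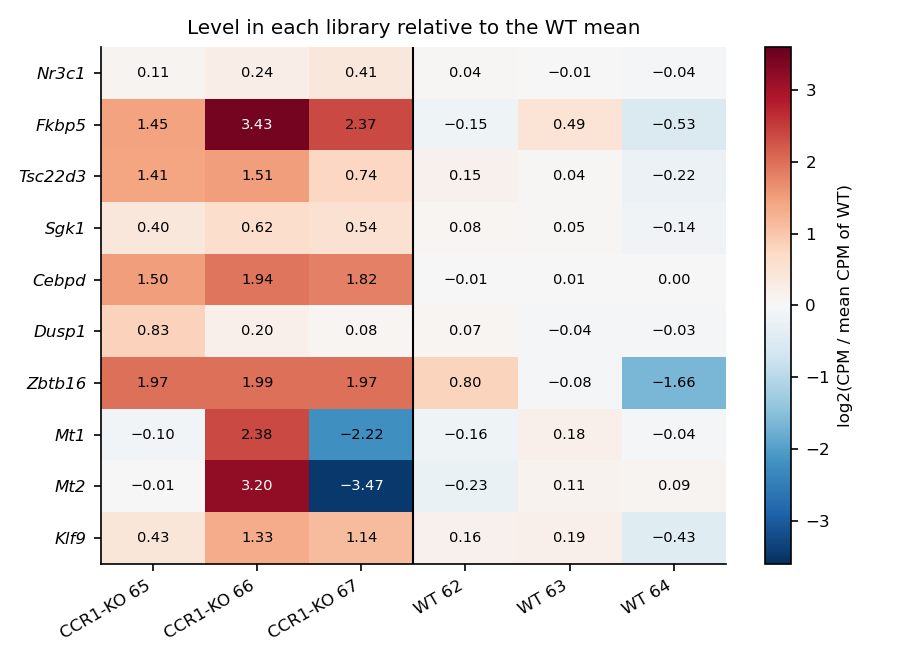
Log2 CPM of each of the 10 genes (rows) relative to its WT mean in each library (columns, CCR1-KO left of WT), with the value written in each cell. Mt2 runs from -3.47 in CCR1-KO replicate 67 to 3.20 in replicate 66, while Zbtb16 lies between 1.97 and 1.99 in the 3 CCR1-KO libraries.

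For each gene, the gene outside the 10 with the most similar log2 CPM over the 6 libraries was sought among 11591 genes with a mean CPM of at least 1. Pearson's r was 0.998 for Nr3c1 with Rhobtb1, 0.998 for Fkbp5 with Snhg5, 0.990 for Tsc22d3 with Ddx5, 0.998 for Sgk1 with Dynlt1c and 0.999 for Cebpd with Ppp1r3g. It was 0.991 for Dusp1 with Sirt4, 0.990 for Zbtb16 with Sav1, 0.999 for Klf9 with Ube2b, and 0.982 and 0.986 for Mt1 and Mt2, both with Sprtn. Spearman's rho was 1 for the partners of Nr3c1, Fkbp5 and Klf9 and 0.943 for the others. Over 6 points that share libraries and group, the best of so many candidates is high for almost any gene, and these values only name the nearest profile. The metallothioneins share their partner, as they share their pattern.

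The proteins that hold the receptor were described by a list of 15 tested chaperone and steroid receptor genes. Of these, 7 rose and none fell, 46.7% against 6.44% of all genes (median log2 fold change 0.66). Hspa8, the constitutive HSP70, reached 2086 ± 327 CPM in CCR1-KO against 1019 ± 89.8 CPM in WT (log2 fold change 1.03 ± 0.17, edgeR adjusted p = 0.018). The inducible HSP90 gene Hsp90aa1 reached 354 ± 56.5 CPM in CCR1-KO against 139.8 ± 41.1 CPM in WT (1.34 ± 0.23, adjusted p = 0.019), and Hsp90ab1 reached 1374 ± 175 CPM in CCR1-KO against 765 ± 58.3 CPM in WT (0.84 ± 0.15, adjusted p = 0.023). Ppid, a cyclophilin cochaperone of the same complex, averaged 46.2 ± 3.52 CPM in CCR1-KO and 29.2 ± 1.42 CPM in WT (0.66 ± 0.11, adjusted p = 0.019). Nr3c2, the mineralocorticoid receptor gene, had a log2 fold change of -0.09 (adjusted p = 0.74). Without scaling factors 3 of the 15 passed, against 6.07% of all genes. With 1 library left out, 8 passed without CCR1-KO replicate 65, 1 without CCR1-KO replicate 67 or WT replicate 64, and none without CCR1-KO replicate 66 or WT replicate 62 or 63. Over all genes, 13.2% passed without CCR1-KO replicate 65 and 0.558% to 2.14% in the other 5 of these fits. Of 15 receptor coregulators, none passed in edgeR, with 7 at an unadjusted p under 0.05 (24.4% of all genes) and 4 passing in DESeq2 (15.1% of all genes; median log2 fold change of the list 0.17).

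Of 11 tested genes that set the supply and clearance of the hormone in liver, none rose in edgeR and 1 fell, with 7 at an unadjusted p under 0.05 (24.4% of all genes) and 5 passing in DESeq2 (15.1% of all genes). Abcb1a, an efflux pump that carries some glucocorticoids, fell to 2.19 ± 0.558 CPM in CCR1-KO against 6.76 ± 1.43 CPM in WT (log2 fold change -1.62 ± 0.27, edgeR adjusted p = 0.018). The remaining genes of this list named here were chosen after their values were seen. Hsd11b1, the enzyme that regenerates active hormone inside hepatocytes, averaged 424 ± 26.3 CPM in CCR1-KO and 416 ± 36.5 CPM in WT (log2 fold change 0.03 ± 0.13, adjusted p = 0.92). Serpina6, which encodes the plasma carrier of corticosterone, had 85.2, 130.3 and 291 CPM in CCR1-KO livers and 203, 143 and 135 CPM in WT livers (adjusted p = 0.93). Its CCR1-KO libraries lay on both sides of WT.

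A list of other genes known to respond to glucocorticoids, most of them liver enzymes and regulators, extends the comparison. Of 38 tested, 15 rose and 1 fell, 42.1% against the 6.44% over all genes, with a median log2 fold change of 0.87. Because the list was chosen with earlier results of these data known, this contrast is a description and not independent evidence. With 1 library left out, 19 passed without CCR1-KO replicate 65, 10 and 11 without CCR1-KO replicates 66 and 67, and 6, 4 and 6 without WT replicates 62, 63 and 64. The shares of all genes in these fits were 13.2%, 1.79%, 2.14%, 1.10%, 0.558% and 0.891%, in the same order. Igfbp1, an insulin-repressed carrier of insulin-like growth factors, reached 469.9 ± 119 CPM in CCR1-KO against 46.5 ± 11.9 CPM in WT (log2 fold change 3.34 ± 0.25, edgeR adjusted p = 0.0022). Pck1, the rate-setting enzyme of gluconeogenesis, reached 4311 ± 525 CPM in CCR1-KO against 1095 ± 34.1 CPM in WT (1.98 ± 0.16, adjusted p = 0.0024). Both are also raised by fasting and low insulin.

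Per1, a clock gene with a receptor element of its own, reached 48.9 ± 6.66 CPM in CCR1-KO against 12.5 ± 1.54 CPM in WT (log2 fold change 1.96 ± 0.15, edgeR adjusted p = 0.0022). Errfi1, an inhibitor of the EGF receptor, reached 1727 ± 229 CPM in CCR1-KO against 556 ± 79.7 CPM in WT (1.63 ± 0.17, adjusted p = 0.0065). Like Cebpd, these 4 genes passed in all 6 fits that leave out 1 library and in all 11 others. Anxa1, the anti-inflammatory annexin that glucocorticoids raise in leukocytes, was the one that fell, to 3.40 ± 1.26 CPM in CCR1-KO against 8.34 ± 1.16 CPM in WT (log2 fold change -1.29 ± 0.29, adjusted p = 0.042). The summed markers of macrophages ranged from 120.1 to 284 CPM in CCR1-KO livers and from 142 to 247 CPM in WT livers, and their part in these results was not tested.

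Tat and Lpin1, chosen after their values were seen, show the spread of the list. Tat, the tyrosine aminotransferase long used as the reporter of glucocorticoid action in liver, averaged 1652 ± 598 CPM in CCR1-KO and 473 ± 3.69 CPM in WT (log2 fold change 1.80 ± 0.27, edgeR adjusted p = 0.015). Lpin1, a phosphatidate phosphatase, averaged 516 ± 428 CPM in CCR1-KO and 48.8 ± 16.8 CPM in WT (3.40 ± 0.61, adjusted p = 0.023). By CPM, replicate 66 was the highest CCR1-KO library for 19 of the 38 genes and replicate 65 the lowest for 25. Over all genes tested, replicate 66 was highest by CPM for 33.6% and replicate 65 lowest for 5959 of 17729. These ranks depended on the scaling. Igfbp1, Per1, Pck1 and Errfi1 were lowest in replicate 65 by CPM but in replicate 67 by deposited FPKM. For Pck1 the FPKM was 1054.7, 1023.2 and 998.3 in replicates 65, 66 and 67. Tat and Lpin1 were lowest in replicate 65 on both scales.

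**Figure D4:**
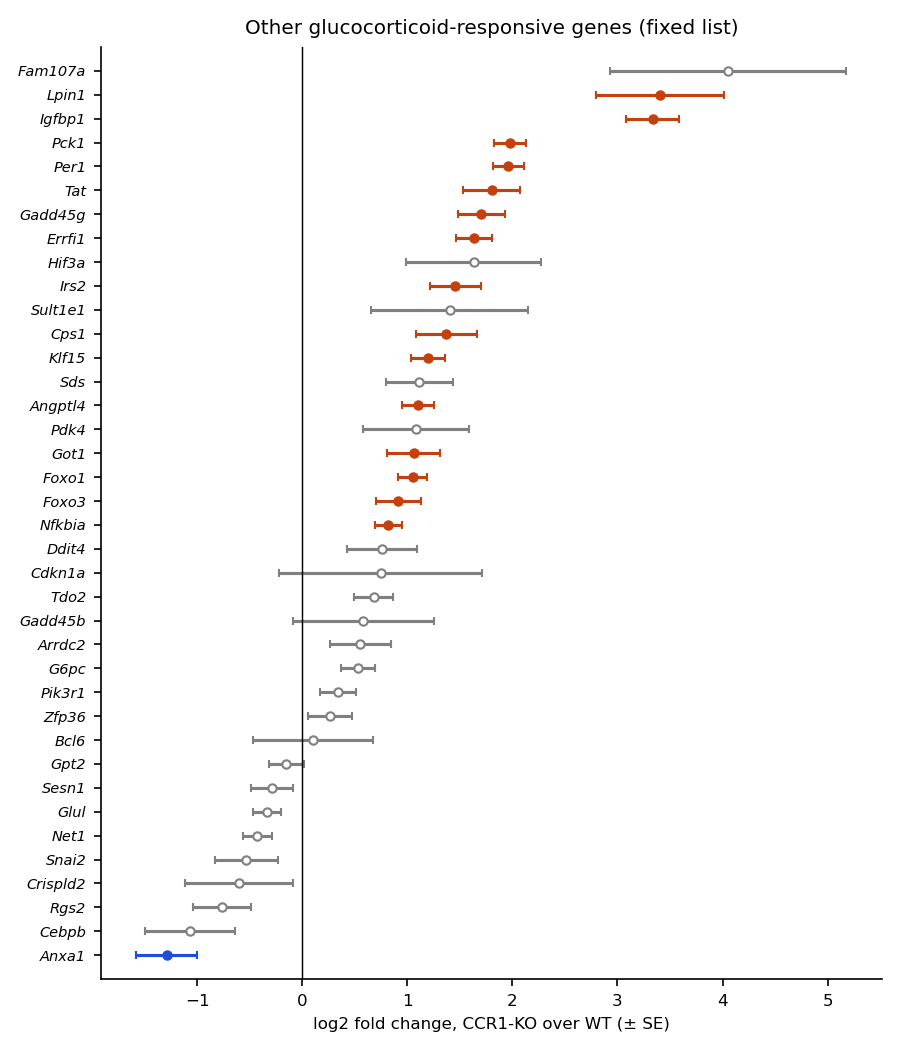
Log2 fold change, CCR1-KO over WT, with its SE from edgeR, for the 38 tested genes of the list of other glucocorticoid-responsive genes, filled where the adjusted p was under 0.05. Fam107a, Lpin1 and Igfbp1 lie beyond 3, Fam107a without passing; 15 genes passed as higher and Anxa1 alone as lower.

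Close relatives of the 10 genes were described by a list of 45 tested paralogs, with a median log2 fold change of 0.06. Of these, 3 rose and 2 fell, 11.1% against 6.44% of all genes (10 passed in DESeq2, against 15.1% of all genes). Klf15, a glucocorticoid-induced regulator of amino acid breakdown, reached 153 ± 26.6 CPM in CCR1-KO against 67.02 ± 6.95 CPM in WT (log2 fold change 1.19 ± 0.16, edgeR adjusted p = 0.011). Klf13, a close relative of Klf9, reached 65.03 ± 9.62 CPM in CCR1-KO against 31.9 ± 4.71 CPM in WT (1.03 ± 0.16, adjusted p = 0.016). Fkbp4, given above, was the third that rose. Fkbp1a, the FKBP12 gene, fell to 38.2 ± 1.22 CPM in CCR1-KO against 62.6 ± 6.49 CPM in WT (-0.71 ± 0.12, adjusted p = 0.018). Fkbp9, an FKBP of the endoplasmic reticulum, fell to 28.3 ± 1.68 CPM in CCR1-KO against 42.2 ± 3.90 CPM in WT (-0.58 ± 0.12, adjusted p = 0.032).

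Several of the 10 genes also answer to growth factor and stress signals and to the clock, so both programmes are given beside them. Of 20 tested immediate early genes 1 rose (5%, against 6.44% of all genes), and 5 had an unadjusted p under 0.05 (24.4% of all genes). The 1 that rose was Maff, a small MAF factor. It averaged 25.4 ± 14.2 CPM in CCR1-KO and 6.07 ± 1.44 CPM in WT (log2 fold change 2.06 ± 0.46, edgeR adjusted p = 0.042). Maff passed in 1 of 6 fits that leave out 1 library and in 5 of 11 other fits. Fos, chosen after its values were seen, had 147, 95.0 and 38.8 CPM in CCR1-KO replicates 65, 66 and 67, against 4.47, 22.004 and 57.0 CPM in WT replicates 62, 63 and 64. It was highest in replicate 65, the library in which Dusp1, another gene of the early response, was highest.

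Of 19 tested clock genes 2 rose, Per1 and Rora (10.5%, against 6.44% of all genes). There were 9 at an unadjusted p under 0.05, against 24.4% of all genes. Rora, an orphan nuclear receptor that activates Arntl, stood at 53.0 ± 4.21 CPM in CCR1-KO against 37.3 ± 0.938 CPM in WT (log2 fold change 0.51 ± 0.11, edgeR adjusted p = 0.038). Rora passed in 1 of 6 fits that leave out 1 library and in 5 of 11 other fits, with log2 fold changes down to 0.15. The CCR1-KO livers differed among themselves in clock genes chosen after their values were seen. Arntl, which encodes BMAL1, had 16.8, 2.97 and 1.84 CPM in CCR1-KO replicates 65, 66 and 67, against 8.94, 9.06 and 7.30 CPM in WT livers. Dbp, an output gene of the clock, had 12.1, 74.0 and 85.2 CPM in the same CCR1-KO libraries, against 42.0, 44.8 and 39.0 CPM in WT livers. Replicate 65 thus lay on one side of WT in both genes, and replicates 66 and 67 on the other. Of the 10 genes, replicate 65 was the lowest CCR1-KO library by CPM for 6, Klf9 and Fkbp5 among them, and replicate 67 for 4. By FPKM, Klf9 and Fkbp5 were the only members lowest in replicate 65. Both were above WT in all 3 CCR1-KO libraries. Zbtb16 was nearly equal in all 3 in CPM. Corticosterone itself follows the clock, and the part of the hour of collection in these results was not tested.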

How the data were processed

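Polyadenylated RNA of whole liver was sequenced as pairs from libraries in which dUTP marked the second strand, per the labels' protocols. The labels describe 12 samples in 4 groups of 3, of which the CCR1-KO and WT groups (6 libraries) enter here and 6 samples were not analysed. For every gene and library the deposited table holds, per the file headers, a whole-number read count, used as deposited, and an FPKM value scaled by the authors to gene length and library size. The submitters' processing notes name StringTie 2.1.6, HISAT2 2.2.1, cutadapt 1.9, edgeR and DESeq2 without their roles. The assignment of reads that match several genes was not given in the sources used here. The notes list GRCh38, but 27839 of 27912 identifiers are in GENCODE M21 (mouse GRCm38) and 89.9% of those found have the same start and end there, so coordinates are given as GRCm38. For Sgk1 the end differs from M21.

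The main test was edgeR 4.0.16 in R 4.3.3 (glmQLFit, glmQLFTest, group as the only term) on counts, with TMM factors and filterByExpr (minimum count 10, minimum total 15), which left 17729 genes. The SE was taken as the size of the log2 fold change divided by the root of edgeR's F. Adjusted p-values are Benjamini-Hochberg over all genes tested, with 0.05 as the threshold, and n is 3 libraries per group. TMM factors were 1.06, 0.874 and 0.779 for CCR1-KO replicates 65, 66 and 67 and 1.06, 1.12 and 1.17 for WT replicates 62, 63 and 64. Alternatives were DESeq2 1.42.0, limma 3.58.1 on log2(FPKM + a pseudocount of 0.1, 0.5 or 1) or with voom, other scalings and filters, and each library left out. Only the main edgeR fit was run on simulated counts with known changes, drawn with the means and dispersions of these same libraries. The outcome is not given here, and the other tools were not checked in this way. As a check for a library deposited more than once only, counts of replicate pairs were compared: none were identical, and the chi-square per degree of freedom was at least 62.8.

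The members and lists were chosen with earlier results of these data known. Named genes are the 10 members and, of each other list, up to 4 of smallest p among those that passed, or all where 5 or fewer passed; others are said to be chosen after their values were seen. Lists are described by counts and medians, and no set test was run.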

Additional observations from a re-analysis of the deposited data

How the results depend on the processing

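Cebpd, Igfbp1, Per1, Pck1 and Errfi1 passed in all 17 alternative fits. Counts of genes that passed moved more. The 1141 among all genes tested became 2521 with DESeq2, 735 with no filter on low counts, 366 with limma on unfiltered log2(FPKM + 0.5), and 102 (without WT replicate 63) to 2419 (without CCR1-KO replicate 65) with 1 library left out. The 4 members became 6 with DESeq2, 2 without scaling factors, 2 with log2(FPKM + 0.1), 1 with unfiltered FPKM, and 1 to 5 with 1 library left out. Of the chaperones and steroid receptors 7 passed. That became 3 with log2(FPKM + 0.5), 3 without scaling factors, 2 with log2(FPKM + 0.1), 4 with log2(FPKM + 1), 0 with unfiltered FPKM, and 0 (without CCR1-KO replicate 66) to 8 (without CCR1-KO replicate 65) with 1 library left out. The 16 other glucocorticoid-responsive genes became 8 with unfiltered FPKM and 4 to 19 with 1 library left out. The share of all genes tested that passed was 6.44% in the main fit, 15.1% with DESeq2 and 6.07% without scaling factors. It was 10.3%, 8.47% and 10.2% with log2(FPKM + 0.5), + 0.1 and + 1, and 1.33% with unfiltered FPKM. With 1 library left out, this share ran from 0.558% (without WT replicate 63) to 13.2% (without CCR1-KO replicate 65).

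Signs turned for 3 members. The log2 fold change of Nr3c1 was -0.054, -0.057 and -0.051 in limma on log2(FPKM + 0.5), + 0.1 and + 1, -0.054 with unfiltered FPKM and -0.056 without scaling factors. For Mt1 it was -0.27, -0.28, -0.26 and -0.27 in the same 4 FPKM fits and ran from -0.80 (without CCR1-KO replicate 66) to 1.61 (without CCR1-KO replicate 67). For Mt2 it was -0.36, -0.39, -0.33 and -0.36 in those fits, -0.074 with limma-voom, and ran from -0.88 to 2.34 with the same libraries left out. The cause was not tested, except that the log2(FPKM + 0.5) and unscaled fits move the median of all genes by -0.23 and -0.30 (log2), and the share of higher calls to 17.2% and 20.4%, from 43.9% in the edgeR fit with TMM. The median log2 fold change of the 10 members was 0.43 and 0.88 in those 2 fits, against 1.17 with TMM. The summed Mt1 and Mt2 gave the exact permutation p of 0.90 with library totals and with FPKM too. No paired analysis was possible because the groups share no replicate number.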
